A study of Homo sapiens with 4 samples.

Results

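Kinesins are motor proteins that use ATP to move along microtubules or to take them apart. Mitotic kinesins build and elongate the spindle, move chromosomes and act in cytokinesis, and many of their genes are transcribed mainly in G2 and M phase of the cell cycle. Transport kinesins carry vesicles, mitochondria and other cargo through cells in every phase, many of them as a heavy chain with light chains or adaptors. The kinesin motor genes were taken as the protein-coding genes whose symbol is KIF with a number and an optional letter, together with KIFC1, KIFC2 and KIFC3. There were 42 such genes, of 19926 protein-coding genes with a listed transcript, and they had 306 transcripts. By their known roles they were divided into 12 mitotic kinesins, 15 transport kinesins and 15 others.

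RNA of H1299 cells, an established line of human non-small-cell lung carcinoma that lacks p53, was sequenced after exposure to a low concentration of mercury chloride in order to find transcriptional changes. Cells of the HgCl2 group received 5 μM HgCl2 for 48 h, and cells of the EtOH group received the solvent alone, 0.6% EtOH, for the same time. This is the account of the study's methods, whereas the treatment text of the labels names 5 μM HgCl2 for all 4 libraries. Each group had 2 columns of values, labelled replicates 1 and 2, whose totals lay between 4720978 and 5053120 counts. A count was found for 33148 and 33106 transcripts in the EtOH columns and for 25432 and 25531 in the HgCl2 columns, at nearly equal totals. The columns of a group differed less than sampling noise allows for separate libraries: the variance of their difference was 0.505 times the counting noise in EtOH (0.492 to 0.517, over 12382 transcripts) and 0.516 times in HgCl2 (0.503 to 0.530, over 10611 transcripts). Each group was therefore counted as 1 sample, no p-value is given across the conditions, and a difference is described by its size alone. The intervals printed are 95% Clopper-Pearson intervals from the mean counts of a group, and they cover counting error only. Values of both columns of a group are shown throughout, and that columns of the groups do not overlap carries no more weight than 1 sample each.

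The cell line's markers VIM, KRT8 and KRT18 summed to 696, 710, 523 and 546 counts in EtOH 1, EtOH 2, HgCl2 1 and HgCl2 2. The sum hides opposite directions, since the leading transcripts of VIM and KRT8 were lower in HgCl2 and that of KRT18 was higher. Markers of other cells (PTPRC, PECAM1, COL1A1 and DCN) summed to 19, 22, 4 and 6 counts, with the leukocyte marker PTPRC at 0. In bulk RNA of this kind, fewer cells in G2 and M phase and less RNA of a gene per cell cannot be told apart.

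The starts of kinesin genes are shown first, because many genes of G2 and M phase carry a CHR (cell cycle genes homology region) close to the start, often with CCAAT boxes upstream. In the promoters of RefSeq (GRCh38.p14, 250 bases before to 50 after the start), 34 of the 42 genes had an entry. KIF13B, KIF19, KIF21B, KIF26B, KIF27, KIF5A, KIFC2 and KIFC3 had none. The letters TTTGAA or TTCGAA, taken as the CHR, and CCAAT were searched on both strands, so that TTCAAA and ATTGG in the printed strand are the same letters read from the other strand. The lines below run 5′ to 3′ from 100 bases before the start, and capitals mark matches to either motif. The mitotic genes are those whose counts carry the results, at chrX:70290004-70290153 (KIF4A, plus strand), chr10:92593030-92593179 (KIF11, plus), chr11:28108107-28108256 (KIF18A, minus), chr16:29790651-29790800 (KIF22, plus) and chr10:89701490-89701639 (KIF20B, plus).
KIF4A: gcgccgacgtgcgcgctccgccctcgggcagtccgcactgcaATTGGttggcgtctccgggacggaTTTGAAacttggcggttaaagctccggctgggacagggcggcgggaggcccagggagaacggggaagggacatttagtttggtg
KIF11: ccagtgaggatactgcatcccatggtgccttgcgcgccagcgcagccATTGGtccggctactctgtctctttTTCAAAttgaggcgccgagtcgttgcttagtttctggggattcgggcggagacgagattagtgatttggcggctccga
KIF18A: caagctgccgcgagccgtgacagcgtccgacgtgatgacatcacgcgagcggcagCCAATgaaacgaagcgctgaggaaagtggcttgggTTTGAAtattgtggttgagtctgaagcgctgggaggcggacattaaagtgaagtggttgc
KIF22: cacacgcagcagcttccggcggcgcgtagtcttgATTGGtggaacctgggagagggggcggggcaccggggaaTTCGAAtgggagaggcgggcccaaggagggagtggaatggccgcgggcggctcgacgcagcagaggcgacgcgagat
KIF20B: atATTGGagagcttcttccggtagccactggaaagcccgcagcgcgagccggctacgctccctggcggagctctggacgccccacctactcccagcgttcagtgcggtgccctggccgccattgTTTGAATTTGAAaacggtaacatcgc
For contrast, the same stretch is given for 3 transport kinesins, at chr10:32056376-32056525 (KIF5B, minus strand), chr20:32277551-32277700 (KIF3B, plus) and chr17:4997850-4997999 (KIF1C, plus).
KIF5B: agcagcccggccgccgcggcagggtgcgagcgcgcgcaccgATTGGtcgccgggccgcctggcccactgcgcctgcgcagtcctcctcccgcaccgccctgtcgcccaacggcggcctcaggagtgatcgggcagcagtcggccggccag
KIF3B: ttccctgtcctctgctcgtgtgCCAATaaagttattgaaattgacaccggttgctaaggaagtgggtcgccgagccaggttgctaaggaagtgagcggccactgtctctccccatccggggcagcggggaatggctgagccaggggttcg
KIF1C: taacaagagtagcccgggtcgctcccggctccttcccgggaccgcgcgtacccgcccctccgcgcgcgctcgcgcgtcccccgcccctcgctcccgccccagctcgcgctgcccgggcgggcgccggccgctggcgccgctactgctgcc

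In KIF4A the first base of the CHR letters lay at −34, where the first base of the gene is 1, and that of the nearest CCAAT letters at −58, with 19 bases between them. KIF11 had the same order at −28 and −53 with 20 bases between, KIF18A at −10 and −45 with 30, and KIF22 at −27 and −66 with 34. KIF20B differed, with a pair of adjoining CHR matches after the start, at 25 and 31, and its nearest CCAAT letters at −98. The leading transcripts of KIF22 and KIF20B, described below, start further downstream, at 29802666 and 89723576. The stretches printed for these genes are thus not at the starts of the transcripts that were counted. KIF5B and KIF3B had CCAAT letters in this stretch and no CHR letters, and KIF1C had neither.

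Over the whole 300 bases, 10 of 12 mitotic kinesin genes held the CHR letters, against 1 of 11 transport genes (KIF5B, at −140), 2 of 11 other kinesin genes (KIF24 and KIF4B) and 5336 of 27305 genes in all (19.5%). The 2 mitotic genes without them were KIF2C and KIF20A. Within 100 bases before to 50 after the start the mitotic count was again 10 of 12, the transport count 0 of 11, the count of others 2 of 11, and 9.09% of all genes had a match. CCAAT letters stood in 10 of 12 mitotic, 4 of 11 transport and 4 of 11 other kinesin promoters, and in 39.7% of all genes. Both motifs together were found in 9 of 12 mitotic genes, in 1 of 11 transport genes, in 2 of 11 others and in 7.85% of all genes. These matches are letters in a window and not measured binding sites.

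**Figure D1:**
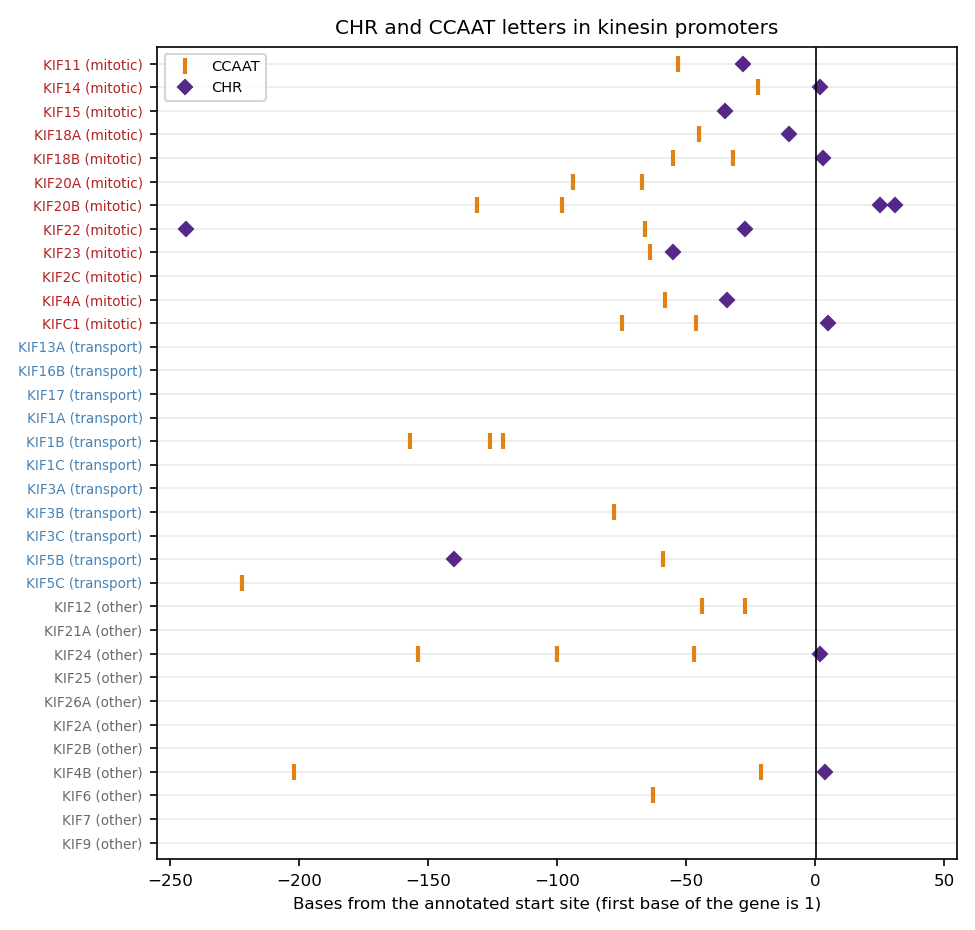
Positions of CHR letters (TTTGAA or TTCGAA) and CCAAT letters in the promoters of kinesin genes, on either strand, in bases from the start site (x axis), with 1 row for each of the 34 genes with an entry and the matches of all its entries. CHR matches of the mitotic genes crowd around the start, apart from the mark at −244 that belongs to a second start of KIF22, whereas the CHR match of the transport kinesin KIF5B lies at −140.

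How much of each gene could be seen differed widely. The deposited counts are per transcript, and reads that could belong to several transcripts appear for the most part not to have been counted. Of the 306 kinesin transcripts, 101 had no base of their own in GENCODE 44 (bases that no other listed transcript covers), and these held 0.0312% of all kinesin counts, on 3 of the 101. The 158 transcripts with at least 50 bases of their own in a row held 99.9%. A low value may therefore mean that a transcript shares its exons with others, and a fold change refers to the bases that were counted.

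Counts were found for 32 of the 42 genes and for 72 of the 306 transcripts. The genes listed at 0 in every column were the mitotic KIF2C and KIF18B, the transport kinesins KIF1A, KIF17 and KIF3C, and KIF12, KIF19, KIF21B, KIF26A and KIF2B among the others. KIF2C, which depolymerises microtubules at centromeres, had no transcript with more than 133 bases of its own in a row, and its longest coding transcripts had none, so that its 0 says little about its RNA. KIF18B, a plus-end motor of astral microtubules, reached 351 such bases. The neuronal motor KIF1A had 1316, KIF21B 1235 and the single transcript of KIF2B 2267, and none of these gathered a count. A count of 0 in a column allows up to 3 counts.

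Values were described for genes whose leading transcript, the one with the most counts, had a mean of at least 30 counts over all 4 columns. This held for 16 transcripts, each of another gene: 5 mitotic, 8 transport and 3 other kinesins. No second transcript of a kinesin gene reached that mean. Fold changes are HgCl2 over EtOH on the log2 scale, fitted by edgeR over 17547 transcripts with a mean FPKM (fragments per kilobase of transcript, scaled to the size of the library) above 1 in a group. A log2 fold change of −1 is 2-fold lower. Other filters and scalings shifted all values together, moving the median of the well-counted transcripts by −0.18 to 0.17, and the range over 13 alternatives is given where it matters for a small change.

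Among the mitotic kinesins, KIF4A, KIF22, KIF11 and KIF18A were lower in HgCl2 and KIF20B was higher. KIF4A, the chromokinesin that works with PRC1 on the central spindle, had 2852 and 2853 counts in EtOH and 970 and 957 in HgCl2. Its coding transcript (ENST00000374403, chromosome X, 70290104 to 70420886) was thus 2.68-fold lower, a log2 fold change of −1.42 (−1.53 to −1.32). Among the 850 transcripts that averaged 1000 counts or more, no other one was lowered further, and 0.588% of them (5 of 850) were at least 2-fold lower. KIF4A shares sequence with its retrogene copy KIF4B, which had 9, 8, 5 and 5 counts, and reads of these copies may not be fully separated.

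KIF11, also called Eg5, is the motor that pushes spindle poles apart and is needed for a bipolar spindle. Its only transcript (ENST00000260731, chromosome 10, 92593130 to 92655395), all 5016 bases of which were its own, had 6158 and 6004 counts in EtOH and 3552 and 3611 in HgCl2. The difference was 1.54-fold, a log2 fold change of −0.62 (−0.68 to −0.56), and 27 of the 850 well-counted transcripts were lower still. KIF18A, which dampens chromosome oscillations at the metaphase plate, had 1577, 1631, 1215 and 1229 counts on its coding transcript ENST00000263181. This was a small decrease of −0.25 (−0.36 to −0.14), beyond counting error, with 97 of the 850 transcripts lower, and it ranged from −0.42 to −0.07 over the alternatives.

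KIF22, a chromokinesin that pushes chromosome arms towards the spindle equator, was seen almost only through a retained intron transcript (ENST00000565736), an RNA that keeps an intron and gives no full protein. It had 227 and 236 counts in EtOH and 88 and 87 in HgCl2, with a log2 fold change of −1.26 (−1.63 to −0.90). This rests on 513 bases near the 3′ end of the gene and does not measure its coding transcripts. KIF20B, a motor of late cytokinesis, went the other way on ENST00000478929, a transcript with no defined coding sequence. It had 16 and 17 counts in EtOH against 50 and 65 in HgCl2, a log2 fold change of 1.94 (1.13 to 2.83). The coding transcript of KIF20B (ENST00000371728) had 5, 12, 0 and 0 counts.

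**Figure D2:**
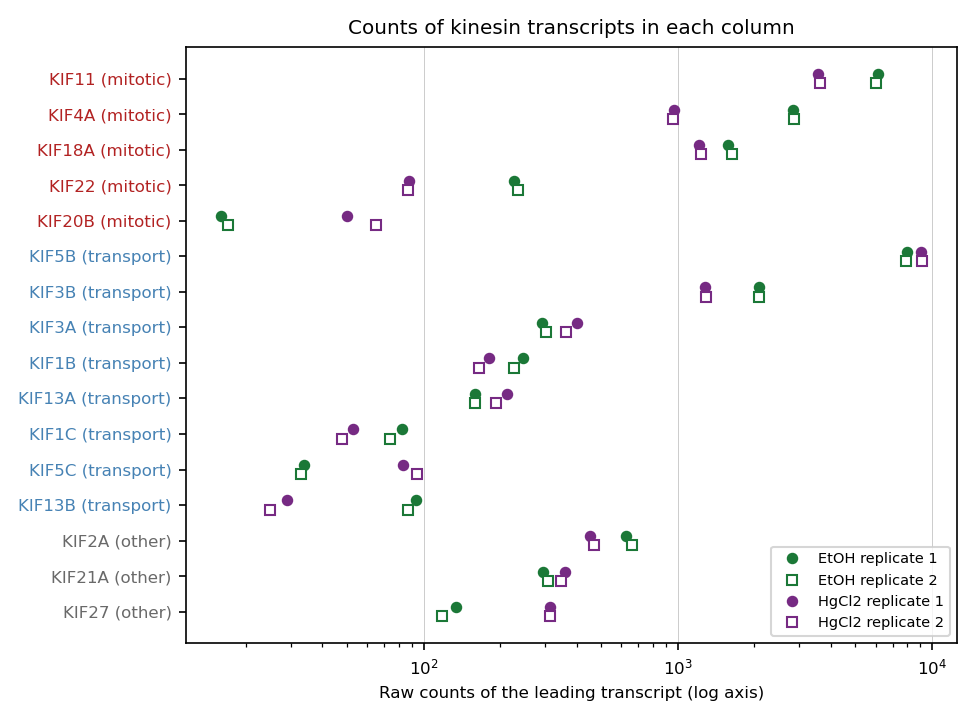
Counts in each of the 4 columns for the 16 kinesin leading transcripts that averaged 30 counts or more, on a log axis. At high counts the points of the columns of a group lie nearly on each other, and the widest gaps between the groups at high counts are those of KIF4A and KIF11.

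Of these 5 mitotic transcripts 4 were lower, 2 of them at least 2-fold (KIF4A and KIF22), and 1 was at least 2-fold higher. Among all 7107 transcripts that averaged 30 counts or more, 9.53% were at least 2-fold lower and 15.5% at least 2-fold higher. The median log2 fold change of the mitotic kinesins was −0.62, within a range of −1.42 to 1.94, and that of all 7107 transcripts was 0.21, with a middle range of −0.32 to 0.69 (quartiles). KIF20B reached the mean of 30 counts only through HgCl2, where it was high. The 4 members that reached it in each group were all lower, from −1.42 to −0.25, with a median of −0.94. The shares and the median of all 7107 transcripts were not limited in this way.

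The remaining mitotic kinesins had few counts, which were summed over the transcripts of a gene. KIF14, which acts with citron kinase in cytokinesis, had 35, 44, 13 and 17 counts (log2 ratio −1.25, −2.22 to −0.36). KIF20A, the motor that brings the chromosomal passenger complex to the central spindle, had 30 and 28 counts in EtOH and 2 and 0 in HgCl2 (−4.71, −10.1 to −2.12). KIFC1, a minus-end motor that focuses spindle poles, had 21, 17, 3 and 4 counts (−2.30, −4.48 to −0.63). All 3 were at least 2-fold lower, but so were 41.4% of all genes whose sums had a mean of 10 to under 30 counts. At these levels the fall in the number of transcripts with a count, from 33148 and 33106 to 25432 and 25531, moves with the same groups, and its part in these values was not tested.

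KIF23, the motor of the centralspindlin complex, had 42, 43, 33 and 24 counts in sum, and the interval of its log2 ratio, −0.43 (−1.17 to 0.29), included 0. Its coding transcripts had no count. Its retained intron transcripts moved in opposite directions, a pair picked after their values were seen: ENST00000558303 had 16, 16, 4 and 1 counts, and ENST00000559456 had 5, 5, 26 and 19. KIF15, a motor that can stand in for KIF11 in spindle assembly, had 1 count in 1 column of each group, too few for a comparison.

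Over gene sums with a mean of at least 10 counts, 8 of 9 mitotic kinesins were lower in HgCl2, 5 of them at least 2-fold (KIF4A, KIF22, KIF14, KIF20A and KIFC1), and KIF20B was at least 2-fold higher. KIF20A and KIFC1 reached that mean only through EtOH, where they were high, and without them 6 of 7 were lower and 3 at least 2-fold lower. Of all 9259 genes with such a sum 19.4% were at least 2-fold lower and 14.1% at least 2-fold higher. The transport kinesins had 5 of 10 genes lower, 2 at least 2-fold lower (KIF13B and KIF5A) and 2 at least 2-fold higher (KIF5C and KIFC3).

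**Figure D3:**
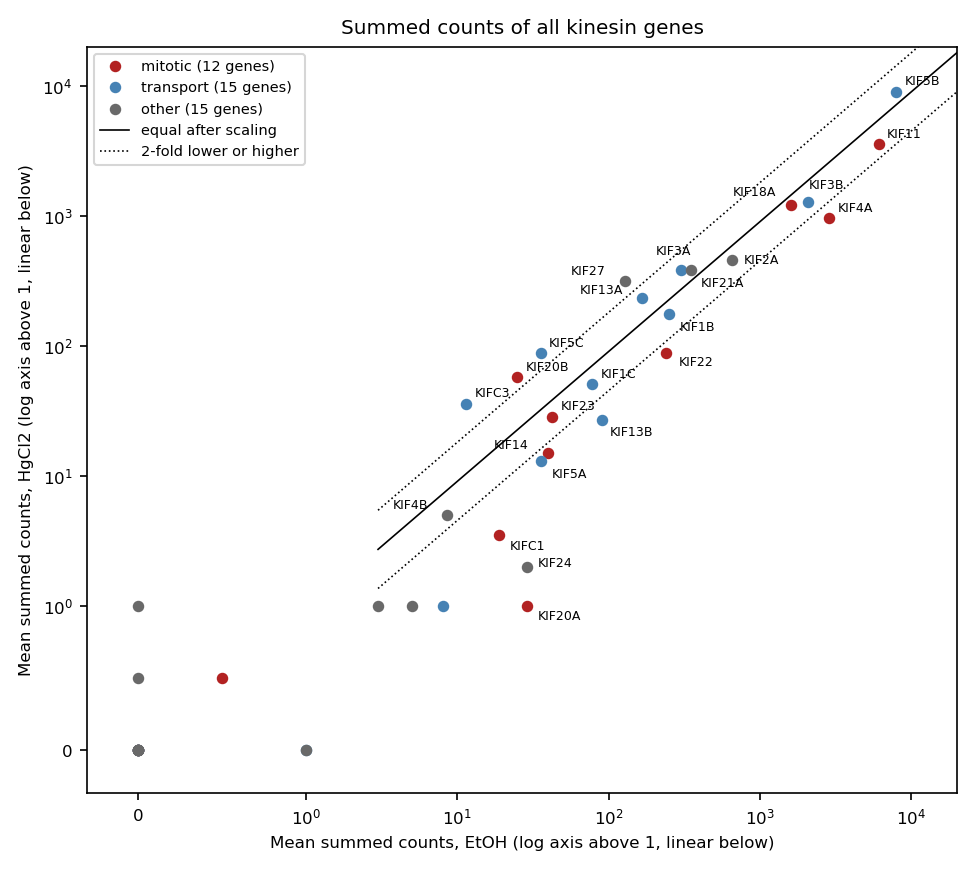
Mean summed counts of each kinesin gene in EtOH (x axis) and HgCl2 (y axis), on axes that are logarithmic above 1 count. The mitotic genes with counts, other than KIF20B and KIF15, lie under the line of equal level, with KIF20A and KIFC1 furthest from it at low counts, and the transport genes lie on both sides.

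Among the transport kinesins, the heavy chain of conventional kinesin that is found in all tissues was higher and subunits of the same or other motors moved both ways. KIF5B had 7938, 7926, 9040 and 9130 counts on its coding transcript (ENST00000302418, chromosome 10, 32009015 to 32056425), the highest counts of any kinesin. Its log2 fold change was 0.34 (0.30 to 0.38), a small increase that ranged from 0.17 to 0.52 over the alternatives. Of the 850 well-counted transcripts 330 exceeded it, and their median was 0.25 over all 850. The neuronal heavy chain KIF5C had 34 and 33 counts in EtOH and 83 and 94 in HgCl2, a log2 fold change of 1.54 (0.96 to 2.16). KIF5A, the other neuronal heavy chain, had gene sums of 39, 33, 11 and 15 counts and a log2 ratio of −1.33 (−2.37 to −0.38). Its sums averaged 24.5 counts, and 41.4% of all genes whose sums had a mean of 10 to under 30 counts were at least 2-fold lower. KIF5B and KIF5C were thus higher, and KIF5A was lower at counts where a decrease was common.

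KIF3A and KIF3B, the motor subunits that pair in kinesin-2, a motor of cilia and vesicles, also went apart. KIF3B had 2084 and 2095 counts in EtOH and 1285 and 1296 in HgCl2 on its single transcript (ENST00000375712, chromosome 20, 32277651 to 32335011), a log2 fold change of −0.55 (−0.65 to −0.45). This was 1 of the larger decreases among well-counted transcripts, since 37 of 850 were lower. KIF3A had 292, 303, 403 and 365 counts and a log2 fold change of 0.51 (0.29 to 0.73), read from 66 bases of its own.

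In the kinesin-3 family, which carries vesicles and other membranes, KIF13B had 93 and 87 counts in EtOH and 29 and 25 in HgCl2. Its log2 fold change was −1.59 (−2.27 to −0.96), and −0.76 with limma on log2(FPKM + 1), a scale that understates changes of low transcripts. KIF13A had 159, 160, 213 and 192 counts, with 0.49 (0.18 to 0.80), on a short coding transcript. A longer coding transcript of KIF13A (ENST00000378814), with 71 bases of its own, had 2, 1, 27 and 31 counts. KIF1B, known for carrying mitochondria and synaptic vesicle precursors, had 247, 227, 181 and 166 counts, with −0.31 (−0.60 to −0.02), and −0.48 to −0.11 over the alternatives. KIF1C had 82, 74, 53 and 48 counts, and the interval of its value of −0.48 (−1.02 to 0.05) included 0, while the alternatives gave −0.66 to −0.19. KIF16B, an early endosome motor, had 11, 5, 0 and 2 counts, and KIFC2 had 1 or 0 counts in each column.

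KIFC3, a minus-end motor of cell junctions and the Golgi apparatus, had gene sums of 13, 10, 35 and 37 counts. The increase came from a retained intron transcript (ENST00000564204) with 0 counts in both EtOH columns and 33 and 34 in HgCl2, at least 12.3-fold higher when EtOH is set to 3 counts. Of the 8 transport kinesins with at least 30 counts on average, 4 were lower and 4 higher, with 1 at least 2-fold lower and 1 at least 2-fold higher, beside 9.53% and 15.5% of all transcripts. Their median was 0.02 (range −1.59 to 1.54), beside 0.21 for all 7107 transcripts that averaged 30 counts or more. KIF13B reached the mean of 30 counts only through EtOH, and the other 7 had a median of 0.34 (range −0.55 to 1.54).

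Among the other kinesins, KIF27, a relative of the ciliary regulator KIF7, was higher. It had 134 and 118 counts in EtOH and 315 in both HgCl2 columns, a log2 fold change of 1.46 (1.16 to 1.78). KIF27 has near-identical copies elsewhere in the genome, so its counts are uncertain. KIF2A, a microtubule depolymerase of spindle poles and neurons that was not in the mitotic list, had 624, 661, 452 and 469 counts, with −0.34 (−0.51 to −0.16; −0.51 to −0.15 over the alternatives), read from 203 bases. KIF21A, an inhibitor of microtubule growth, had 296, 309, 359 and 348 counts and a value of 0.37 (0.14 to 0.59; 0.19 to 0.54 over the alternatives) on a transcript annotated for nonsense-mediated decay.

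KIF24, a depolymerase of centrioles, had 29 and 29 counts in EtOH and 1 and 3 in HgCl2 (log2 ratio −3.71, −6.83 to −1.73), and its promoter was 1 of the 2 outside the mitotic list with CHR letters near the start. KIF24 was counted almost only in EtOH, in the class of sums of which 41.4% were at least 2-fold lower. KIF25 had 6, 4, 1 and 1 counts and KIF7 had 3, 3, 1 and 1. KIF6, KIF9 and KIF26B had at most 1 count in a column.

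**Figure D4:**
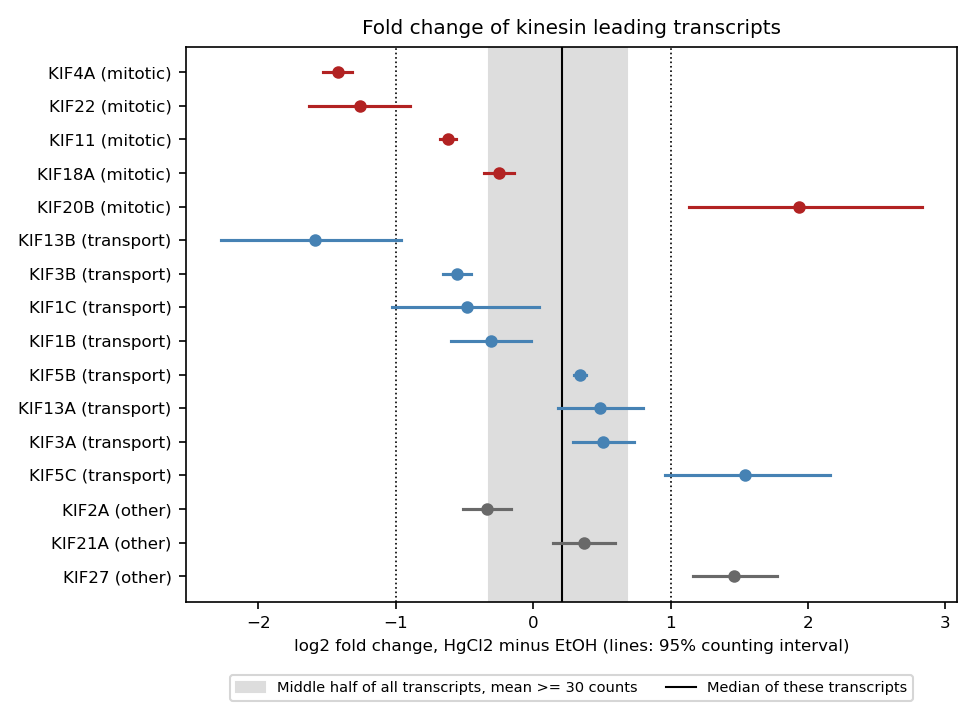
Log2 fold change of the 16 kinesin leading transcripts, HgCl2 minus EtOH, with 95% counting intervals as lines. The grey band and the black line mark the quartiles (−0.32 to 0.69) and the median (0.21) of all 7107 transcripts that averaged 30 counts or more. KIF13B, KIF4A, KIF22, KIF11, KIF3B, KIF1C and KIF2A lie left of the band.

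The mitotic median was 0.64 lower than the transport median on the log2 scale (a difference of −0.64), and the ranges of the classes overlapped, since KIF20B was the highest of all 16 and KIF13B the lowest. Without these members, each of which met the limit in 1 group alone, the difference was −1.28, and the ranges still overlapped between −0.55 and −0.25, the values of KIF3B and KIF18A. With 5 and 8 genes and 1 sample for each condition, this difference was not tested.

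Summed over all genes of a class, the mitotic kinesins held 2172 and 2156 of every 1000000 counts in EtOH and 1255 and 1270 in HgCl2. On the edgeR scale of the fold changes above this was a log2 ratio of −0.73 (−0.78 to −0.69), and −0.78 on the scale of the column totals. KIF11 made up 57.2% of these counts, KIF4A 22.6% and KIF18A 16.8%. Without KIF11 the mitotic sums were 953, 968, 503 and 505 on this scale, and the log2 ratio on the edgeR scale was −0.88 (−0.96 to −0.81). The transport kinesins held 2182 and 2172 in EtOH and 2406 and 2416 in HgCl2, a log2 ratio of 0.19 (0.16 to 0.23) on the edgeR scale and 0.15 by column totals. KIF5B alone made up 76.0% of them, and without it the sums were 610, 604, 492 and 483, so that the log2 ratio turned to −0.27 (−0.35 to −0.19) on the edgeR scale and −0.32 by column totals.

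**Figure D5:**
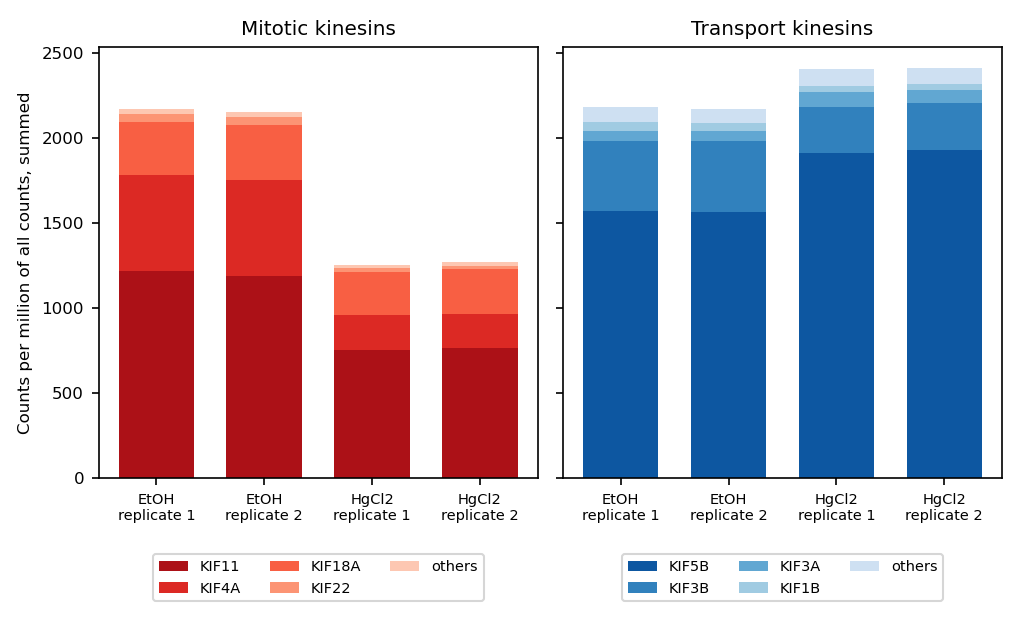
Counts of mitotic (left) and transport (right) kinesin genes in each column, summed and scaled to a column total of 1000000, with the genes that hold most counts stacked from the bottom. The mitotic sum is near 2172 in EtOH and 1255 in HgCl2, and KIF5B fills most of each transport bar.

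On the FPKM scale, which divides by transcript length, KIF5B stood highest in EtOH (246, the mean of the deposited columns), followed by KIF11 (221), KIF4A (118), KIF18A (85.5) and KIF3B (62.2). In HgCl2 the FPKM levels were 352 for KIF5B, 162 for KIF11, 81.3 for KIF18A, 49.9 for KIF4A and 48.0 for KIF3B. These levels divide by the full length although counts fell almost only on transcripts with bases of their own, and they may be too low where few bases are a transcript's own. The order of the genes depended on this. Per base of its own KIF18A (1864 of 3417 bases) stood above KIF4A (3902 of 4388) in both groups. The values were 0.861 against 0.731 counts in EtOH and 0.656 against 0.247 in HgCl2. KIF3A and KIF2A, with 4.51 and 3.17 counts per such base in EtOH, stood above KIF5B at 1.48. In HgCl2 they had 5.82 and 2.27 against 1.69. KIF3A and KIF2A were read from only 66 and 203 bases of their own. A read can reach past such bases, so counts per own base may be too high where these are few. The values therefore do not rank KIF3A and KIF2A against KIF5B.

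Kinesins without a KIF symbol gave little. CENPE, the kinetochore motor, had 3, 1, 0 and 2 counts on its leading transcript. STARD9, a motor of the pericentriolar material, had 77, 75, 39 and 45 counts, a log2 ratio of −0.71 (−1.29 to −0.15).

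Of 21 genes that work with kinesins in mitosis, 3 had a leading transcript with at least 30 counts on average, and these were all lower without reaching 2-fold, with a median of −0.39. The spindle pole protein ASPM had 3407, 3296, 2515 and 2486 counts (−0.28, −0.35 to −0.20), CCNB1, the cyclin of mitotic entry, had 492, 467, 323 and 340 (−0.39, −0.60 to −0.18), and a retained intron transcript of its kinase CDK1 had 346, 349, 210 and 203 (−0.61, −0.86 to −0.35). Each of these decreases was smaller than that of KIF4A.

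For the regulators of G2 and M genes, 5 of 13 had such a transcript, with 3 lower, 1 at least 2-fold higher (15.5% of all transcripts were) and a median of −0.01. The transcript at least 2-fold higher was a retained intron transcript of FOXM1, the transcription factor of these genes, with 20, 27, 47 and 58 counts (1.30, 0.58 to 2.07). It averaged 23.5 counts in EtOH and 52.5 in HgCl2. Thus it met the limit on mean counts, and entered the median of −0.01, only through HgCl2, where it was high. The share of all transcripts was not limited in this way, and the coding transcripts of FOXM1 are not measured by this transcript. A retained intron transcript of RBL2, the pocket protein of the DREAM repressor complex, had 91, 98, 152 and 174 (0.93, 0.56 to 1.31). The coding transcript of TFDP1, the partner of E2F proteins, had 278, 273, 177 and 184 (−0.47, −0.75 to −0.19).

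Partners and counterparts of transport kinesins were set beside the median of 0.21 of all 7107 transcripts that averaged 30 counts or more. Of 12 kinesin light chain and adaptor genes 3 were counted well enough, with a median of 0.11: a retained intron transcript of the scaffold SPAG9 had 407, 380, 721 and 733 counts (1.03, 0.85 to 1.21), the light chain KLC1 had 75, 64, 54 and 55 (−0.21, −0.75 to 0.33), and the mitochondrial adaptor TRAK2 had 1232, 1271, 1217 and 1231 (0.11, −0.003 to 0.23). Of 21 genes of cytoplasmic dynein and dynactin, the motor that moves the opposite way to most kinesins, 10 were counted well enough. Their median was −0.03, and 2 were at least 2-fold lower, beside 9.53% of all transcripts. Those 2, DCTN2 and NDEL1, reached the mean of 30 counts only through EtOH, where they were high, and so did ACTR1B. These members pull the median of −0.03 down, so it is not read as a difference from 0.21. The 3 furthest from 0 were DCTN2, a dynactin subunit with 73, 57, 30 and 21 counts (−1.20) on a transcript without bases of its own in GENCODE 44, a retained intron transcript of the dynein regulator NDEL1 with 54, 52, 20 and 25 (−1.09) and the dynein light chain DYNLT3 with 912, 965, 1283 and 1340 (0.63).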

How the data were processed

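RNA-seq of H1299 cells came as series-wide tables of 4 columns. Per the study's methods, reads were trimmed with Trim Galore and aligned to GRCh38 with STAR 2.5.4b, and the authors deposited raw counts for each Ensembl transcript. The counting options and the use of strand are not given in the sources used here. For the deposited FPKM values the authors used DESeq2 1.26.0 and its median ratio scaling. The submitters' processing notes also name edgeR 3.28.1 and limma.

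Symbols, transcript types and coordinates were read from GENCODE 44 (GRCh38), newer than the authors' annotation, which held 98.3% of the identifiers and 99.8% of the counts. Bases of a transcript's own were counted over listed transcripts on either strand. In R 4.3.3, edgeR 4.0.16 (glmQLFit, TMM) was fitted to the 17547 transcripts whose mean FPKM passed 1 in either group, and the fit was tested on simulated data. A transcript is called where its fitted change is at least 2-fold. Low genes were compared by log2 ratios of summed counts on the same scale. Each group counts as 1 sample, so no test was made between conditions.

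The members, classes and lists were chosen with earlier results of these data known. Every member was accounted for. Values were given for leading transcripts that averaged 30 counts or more over all 4 columns, and of the other lists for the 3 such transcripts furthest from 0, plus CENPE and STARD9. Alternatives used DESeq2 1.42.0 and limma 3.58.1 with pseudocounts of 1 and 0.1, other filters, scalings and sums by gene. A planned search of protein sequences was not run, as the protein table was not used here.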

Additional observations from a re-analysis of the deposited data

How the results depend on the processing

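All 16 fold changes of kinesin leading transcripts kept their sign in 13 of 13 alternatives each. Their side of 2-fold was kept in all by 15 of the 16, and by KIF13B in 12. Some alternatives left out a column or used the replicate block. These could hardly differ, since the columns of a group count as 1 sample. The value of KIF4A lay between −1.60 and −1.23, that of KIF11 between −0.79 and −0.44. Filters and tests shifted the scale as a whole, moving the median of all transcripts that average 30 counts or more by −0.18 to 0.17, while the value of KIF4A minus that median lay between −1.64 and −1.58.

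The median of the mitotic kinesins was −0.48 without a filter, −0.79 with at least 10 counts in every column, −0.73 with a mean of at least 10 counts, −0.44 with limma on log2(FPKM + 1) or on log2(FPKM + 0.1), −0.50 with all transcripts of a gene summed and −0.68 with coding transcripts summed. Describing members from a mean of 10 counts gave −0.43, and 5 transcripts at least 2-fold higher in place of 3. From a mean of 100 counts the mitotic median was −0.94, the transport median 0.34, their difference −1.28, and 1 transcript was at least 2-fold higher. With every other kinesin gene taken as transport, the transport median was 0.34 and the difference −0.96. Mitotic genes at least 2-fold lower numbered 1 with coding transcripts summed, and 1 with coding leading transcripts alone, an alternative chosen after seeing the data, since KIF22 was then left out. With the mean of 30 counts required in each group, also chosen after seeing the data, the medians were −0.94 and 0.34, their difference −1.28, and 2 transcripts were at least 2-fold lower and 2 higher. Some values differed by more than 1.5 times from the edgeR value given above in at least 1 alternative. With their lowest and highest values they were KIF18A (−0.42 to −0.07), KIF3B (−0.73 to −0.37), KIF1B (−0.48 to −0.11), KIF1C (−0.66 to −0.19), KIF2A (−0.51 to −0.15), KIF13B (−1.76 to −0.76), KIF5B (0.17 to 0.52), KIF13A (0.31 to 0.66), KIF3A (0.34 to 0.68), KIF21A (0.19 to 0.54) and KIF20B (1.18 to 2.12).

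With the replicate block the counts were again 3 lower and 3 higher, the mitotic median −0.62 and the difference −0.64. Columns that share a number did not deviate together (r = 0.037 across 7107 transcripts). Since columns of a group differ by less than sampling noise, this cannot show whether the samples were paired. At the depth of these columns, kinesins below a mean of 30 counts were compared only roughly.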
